A study of Mus musculus with 24 samples.

Results

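Binding of Cdx2 was examined across the mouse locus on chromosome 4 that holds Acnat2, Acnat1 and Baat, 3 neighbouring genes for acyl-CoA:amino acid N-acyltransferases. The locus was taken as the bodies of the 3 genes with 50 kb to either side (mm10, chr4:49329840-49556557, 227 kb), and its members were the Cdx2 peaks with a summit inside it. These were 49 of the 206283 peaks in the 12 deposited lists. Overlapping peaks (1 bp or more) were joined into 1 site, which gave 8 of the 61454 merged regions of the genome. The sites are numbered 1 to 8 here from low to high coordinates. The locus was chosen by its measured peaks, with their calls per group and their fold enrichment in view, so these values are given as a description with no test.

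The libraries came from organoids, 3-dimensional cultures of epithelial stem cells and their progeny, grown from the proximal or the distal colon of female mice of 8 weeks. All groups carried a heterozygous Cre-inducible BrafV600E allele and a heterozygous tdTomato reporter. The allele gives normal Braf until Cre acts, and the labels name no Cre for these samples. After 4 months in WENR-plus medium, which holds Wnt3a, EGF, Noggin and R-spondin, organoids either stayed in it or, for WENR-minus, were plated for 2 days and deprived of these factors over the next 3 days. Crossing the 2 colon sites with the 2 media made 4 groups, each with 3 libraries numbered as biological replicates, which the study describes as cultures from 3 mice. The sex, age and genotype come from its general methods on organoids, which name 2 mice. The methods for Cdx2 binding name 3 mice and do not repeat these items. Organoids hold epithelium without the stroma, immune cells or luminal content of the colon. The peak lists differed in length, from 11409 to 42192 peaks in the proximal and from 5608 to 21040 in the distal libraries.

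Cdx2 is a homeobox transcription factor that keeps intestinal epithelial identity and binds AT-rich DNA. Baat joins bile acids, activated as CoA thioesters, to taurine or glycine, the last step by which bile salts are made. Acnat1 and Acnat2 are close relatives of Baat, and Acnat1 is known to join taurine to long-chain fatty acids in peroxisomes. The 3 genes lie in 1 cluster on the same strand, and stretches of the cluster are near-copies of each other, which the sequences below show.

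The Cdx2 motif searched for was TTTAT followed by G or T and then A or G, on either strand. Capitals mark its matches in the following reference sequence, all read along the plus strand. The first sequence is the strongest site of the locus, site 4, in 300 bases around its median summit (chr4:49469820-49470119).
Site 4: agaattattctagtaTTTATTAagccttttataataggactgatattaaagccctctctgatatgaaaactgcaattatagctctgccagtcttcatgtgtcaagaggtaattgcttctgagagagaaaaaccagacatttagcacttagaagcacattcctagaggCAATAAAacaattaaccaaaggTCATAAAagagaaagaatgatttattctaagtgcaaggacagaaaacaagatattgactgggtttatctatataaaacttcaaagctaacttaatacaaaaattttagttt
The next sequences are 3 pairs in which the summit of a site is set beside its near-copy elsewhere in the locus, shown because the calls in the 2 copies differed. Site 3 (chr4:49453630-49453730) lies in Acnat1 and its copy (chr4:49388378-49388472) in Acnat2.
Site 3: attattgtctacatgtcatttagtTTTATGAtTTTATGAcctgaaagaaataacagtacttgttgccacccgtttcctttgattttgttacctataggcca
Site 3 copy: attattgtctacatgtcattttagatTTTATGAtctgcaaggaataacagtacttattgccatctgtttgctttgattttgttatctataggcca
Site 6 (chr4:49486201-49486301) and its copy (chr4:49510225-49510324) lie to either side of Baat.
Site 6: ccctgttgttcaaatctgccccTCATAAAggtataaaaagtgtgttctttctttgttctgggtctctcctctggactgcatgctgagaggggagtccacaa
Site 6 copy: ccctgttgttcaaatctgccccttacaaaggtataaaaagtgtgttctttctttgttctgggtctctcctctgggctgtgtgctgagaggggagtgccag
Site 1 (chr4:49382652-49382752) lies in Acnat2 and its copy (chr4:49450213-49450313) in Acnat1.
Site 1: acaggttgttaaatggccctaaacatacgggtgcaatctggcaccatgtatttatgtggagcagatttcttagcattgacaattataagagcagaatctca
Site 1 copy: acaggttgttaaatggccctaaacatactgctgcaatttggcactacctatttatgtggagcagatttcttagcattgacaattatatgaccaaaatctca

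The peaks were not spread evenly over the cluster. Of the 8 sites, 3 lay in introns of Acnat1, 1 in an intron of Acnat2 and 4 between genes. Site 1 (chr4:49382484-49382898) was 0.874 kb downstream of an internal start site of Acnat2, 25.4 kb from the outer start of that gene. Sites 2 (chr4:49452371-49452676) and 3 (chr4:49453282-49454062) were 1.33 and 2.54 kb upstream of an internal start site of Acnat1 and inside the long transcript of the gene. Site 4 (chr4:49469242-49470671) was also inside that transcript, 3.94 kb downstream of its outer start. Site 5 (chr4:49480924-49481249) and site 6 (chr4:49485482-49486849) lay 7.18 and 12.3 kb upstream of the outer start of Acnat1, between Acnat1 and the 3′ end of Baat. Site 7 (chr4:49510410-49510673) was 4.03 kb upstream of Baat. Site 8 (chr4:49553316-49553628) was 46.9 kb upstream of Baat, near the right edge of the window.

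**Figure D1:**
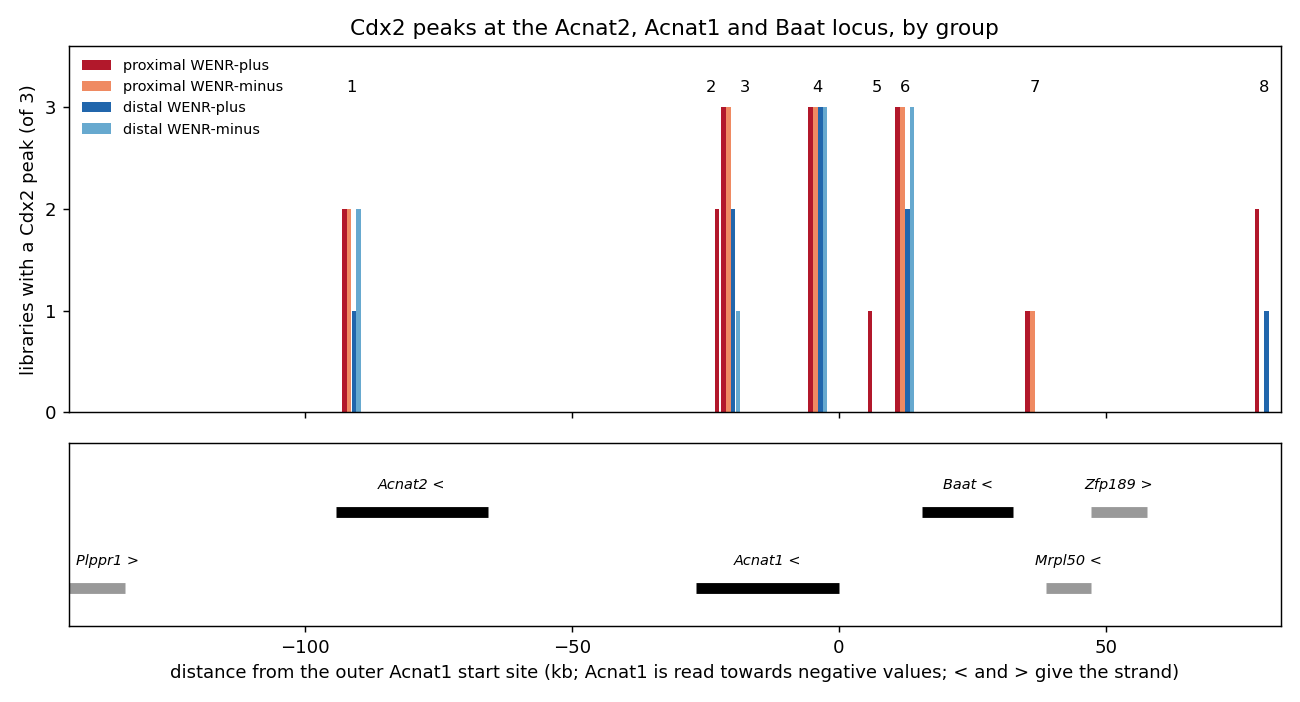
Number of libraries (of 3 in each group) with a Cdx2 peak at each of the 8 sites, against the distance in kb from the outer start of Acnat1; the lower panel draws the 3 members in black and Plppr1, Mrpl50 and Zfp189 in grey. Site 4 reaches 3 of 3 in all 4 groups, and no bar stands at the outer start sites of Acnat1, Acnat2 or Baat.

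One site was called in all 12 libraries, site 4, beside 3.38% of all merged regions. Site 6 was called in 11 libraries, site 3 in 9, site 1 in 7, site 8 in 3, sites 2 and 7 in 2 each and site 5 in 1. In WENR-plus medium a library held 4 to 7 sites in proximal and 2 to 5 in distal organoids. In WENR-minus medium it held 3 to 5 in proximal and 2 to 4 in distal organoids. The longest list, of 42192 peaks, held 7 of the 8 sites, and the shortest, of 5608 peaks, held 2. With every list cut to the 5608 peaks of lowest p-value, sites 3, 4 and 6 were left.

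Site 4 was among the strongest Cdx2 peaks of the genome in every library. Its fold enrichment over the matched input was 89.4, 102 and 52.1 in replicates 1, 2 and 3 of proximal WENR-plus organoids. In proximal WENR-minus organoids it was 72.5, 77.5 and 34.8. Replicate 3 had the lowest of the 3 values in both groups. The distal values were 42.3, 52.9 and 24.8 in WENR-plus and 57.1, 41.4 and 34.3 in WENR-minus organoids. The proximal and distal ranges overlapped, and replicate 3 again held the lowest value of each group. Between libraries of the same number and medium, the proximal fold was always the higher one. The 4 libraries of replicate 3 ran from 24.8 to 52.1, and the other 8 libraries from 41.4 to 102.

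Fold enrichment depends on sequencing depth and on the matched input, so each value was also ranked within its list. Site 4 was the highest of all peaks in 4 of the 12 lists: replicates 1 and 2 of proximal WENR-plus, replicate 2 of proximal WENR-minus and replicate 2 of distal WENR-plus. In 9 lists it was among the top 5. Its lowest rank was 33 of 11409 peaks, in replicate 3 of proximal WENR-minus organoids. All 8 libraries of replicates 1 and 2 had it at rank 4 or better, whereas the 4 libraries of replicate 3 had it at ranks 5 to 33. Among the 2079 regions called in all 12 libraries, site 4 had the second highest mean percentile of fold enrichment (rank 2).

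**Figure D2:**
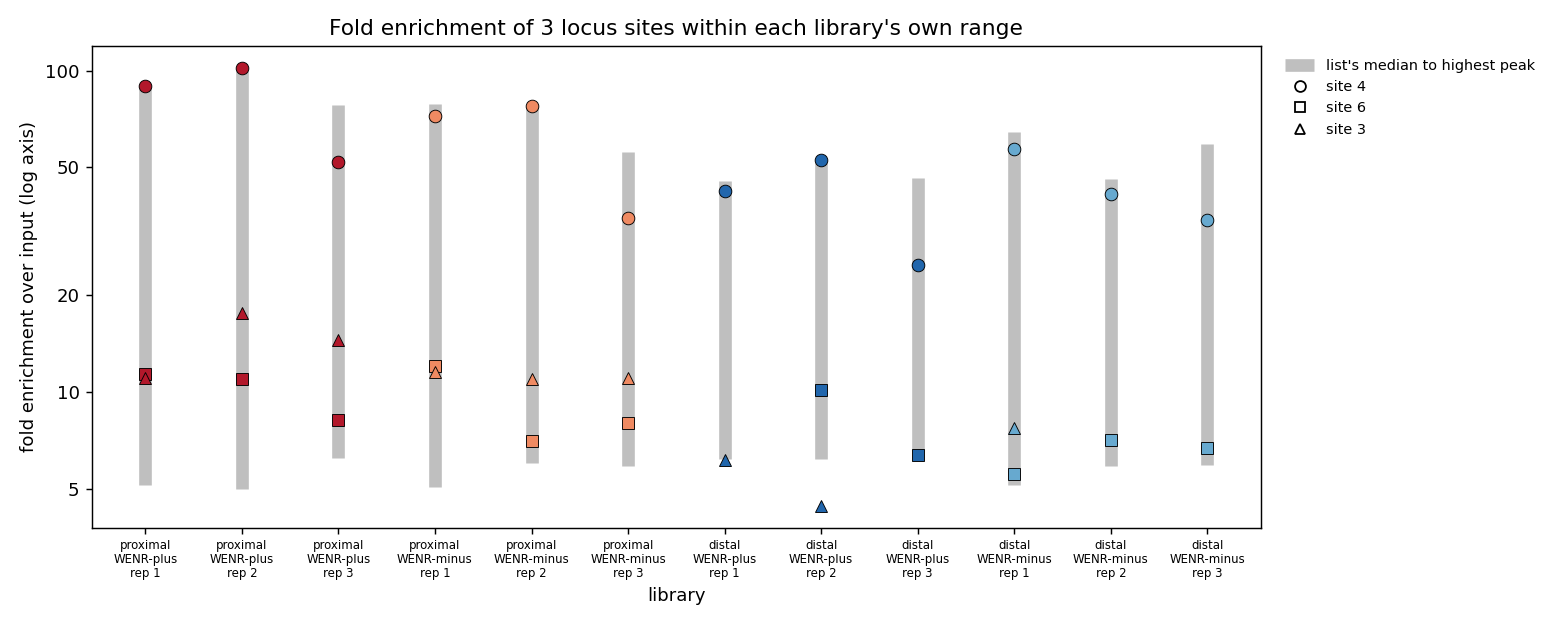
Fold enrichment over input, on a log axis, of sites 3, 4 and 6 in each of the 12 libraries; each grey bar spans from the median to the highest peak of that library's list, and a missing symbol is a library with no peak. The circles of site 4 lie at or near the top of each bar (24.8 to 102), while the triangles of site 3 lie between 11.0 and 17.6 in proximal and between 4.44 and 7.75 in the 3 distal libraries with a peak.

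The summits of site 4 fell at close to the same base in most libraries. In 9 of the 12 libraries the summit lay within 7 bp of the median summit, and in the other 3 it lay 59 to 64 bp to the right of it. The pair of motif matches on the reverse strand, centred 20 and 42 bp to the right of the median summit, stood between these 2 positions. The shifted summits belonged to replicate 3 of proximal and of distal WENR-plus and to replicate 2 of distal WENR-minus organoids. A further match was centred at −132 bp. Peak width at the site ran from 582 to 1430 bp, beside list medians of 208 to 349 bp.

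**Figure D3:**
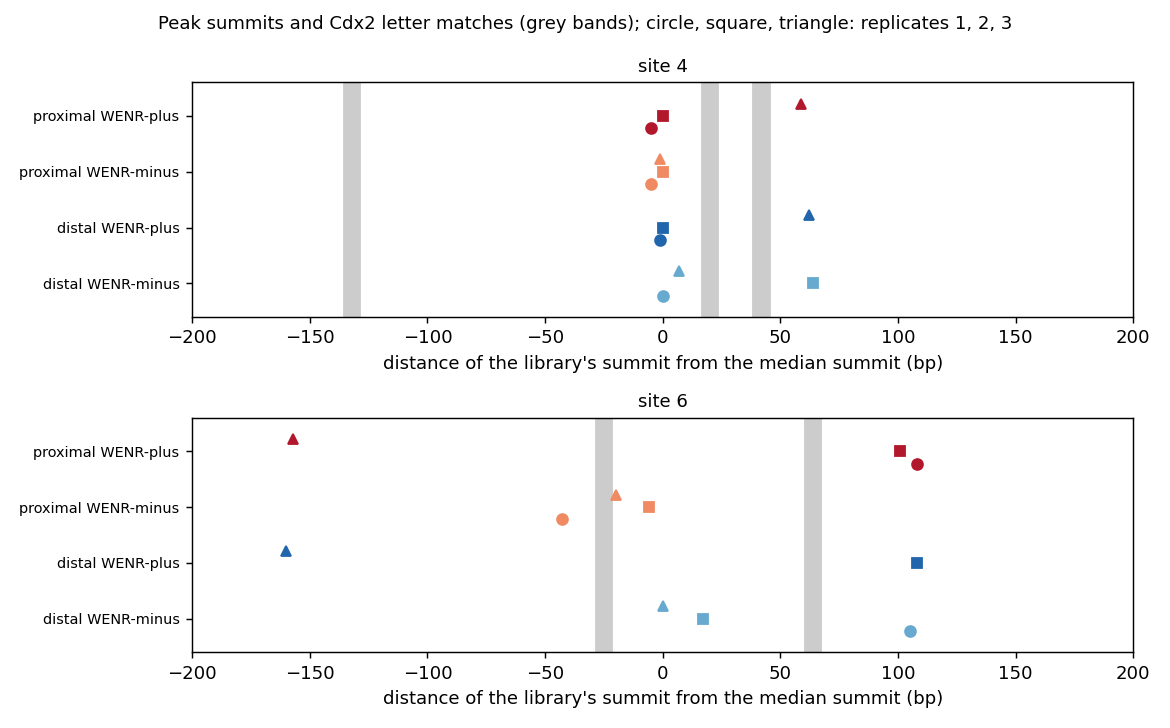
Position of the summit in each library, in bp from the median summit, at site 4 (upper panel) and site 6 (lower panel); rows are groups, symbols are replicates, and grey bands are matches to the Cdx2 motif, of which site 6 has 2 more beyond the right edge. At site 4 all 12 summits lie between −5 and 64 bp, and at site 6 the 11 summits spread from −160 to 108 bp.

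Site 3, the site 2.54 kb upstream of the internal Acnat1 start, showed the largest spread between colon sites of the 8. Its fold enrichment was 11.1, 17.6 and 14.5 in proximal WENR-plus and 11.6, 11.0 and 11.1 in proximal WENR-minus organoids, replicates 1 to 3. In distal WENR-plus organoids it was 6.17 and 4.44 in replicates 1 and 2, with no peak in replicate 3. In distal WENR-minus organoids it was 7.75 in replicate 1, with no peak in replicates 2 and 3. The 6 proximal libraries all had the site, the 3 distal libraries with a peak all lay below the lowest proximal value, and the other 3 distal libraries had none. As a percentile within its own list the site averaged 92.7 ± 3.14 in proximal and 24.4 ± 35.4 in distal libraries (SD, n = 6 each, no peak counted as 0), a difference of −68.3, distal minus proximal. With lists of equal length the site was called in 6 proximal and 2 distal libraries.

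Site 6, between Acnat1 and Baat, was called in all 6 proximal and 5 of 6 distal libraries. The fold enrichment was 11.4, 11.0 and 8.22 in proximal WENR-plus and 12.1, 7.08 and 8.05 in proximal WENR-minus organoids, replicates 1 to 3. It was 10.2 and 6.40 in replicates 2 and 3 of distal WENR-plus organoids, with no peak in replicate 1, and 5.56, 7.13 and 6.70 in distal WENR-minus organoids. The proximal and distal values overlapped. The mean percentile was 82.9 ± 11.8 in proximal and 56.1 ± 30.8 in distal libraries (SD, n = 6 each), and the difference of −26.7 came to −6.61 with lists of equal length and −7.96 without replicate 1. Unlike at site 4, the summits spread over 268 bp, in a group near −160 bp (replicate 3 of both WENR-plus groups), a middle group from −43 to 17 bp and a group from 101 to 108 bp.

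The remaining sites were weak. Site 1, in Acnat2, had a fold enrichment of 4.32 to 5.39 in its 7 libraries, 4 proximal and 3 distal, and percentiles of 6.45 to 56.8. Its mean percentile was 22.4 ± 22.8 in proximal and 11.9 ± 16.3 in distal libraries (SD, n = 6 each), and the sign of that difference turned without replicate 1. Sites 2, 5 and 7, called in 2, 1 and 2 libraries, were called in proximal libraries alone. The share of all merged regions with proximal calls alone is not given here, and the proximal lists ran longer. Site 2 had folds of 3.80 and 5.02 in replicates 1 and 2 of proximal WENR-plus organoids. Site 7, the nearest site to Baat, had a fold of 7.21 in replicate 2 of proximal WENR-plus and of 4.64 in replicate 1 of proximal WENR-minus organoids. Site 5 had a fold of 4.16 in replicate 2 of proximal WENR-plus organoids. Site 8 was called in 3 WENR-plus libraries, with folds of 4.12 and 5.64 in proximal replicates 1 and 2 and 5.33 in distal replicate 2. None of these 5 sites was called in any library with lists of equal length.

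**Figure D4:**
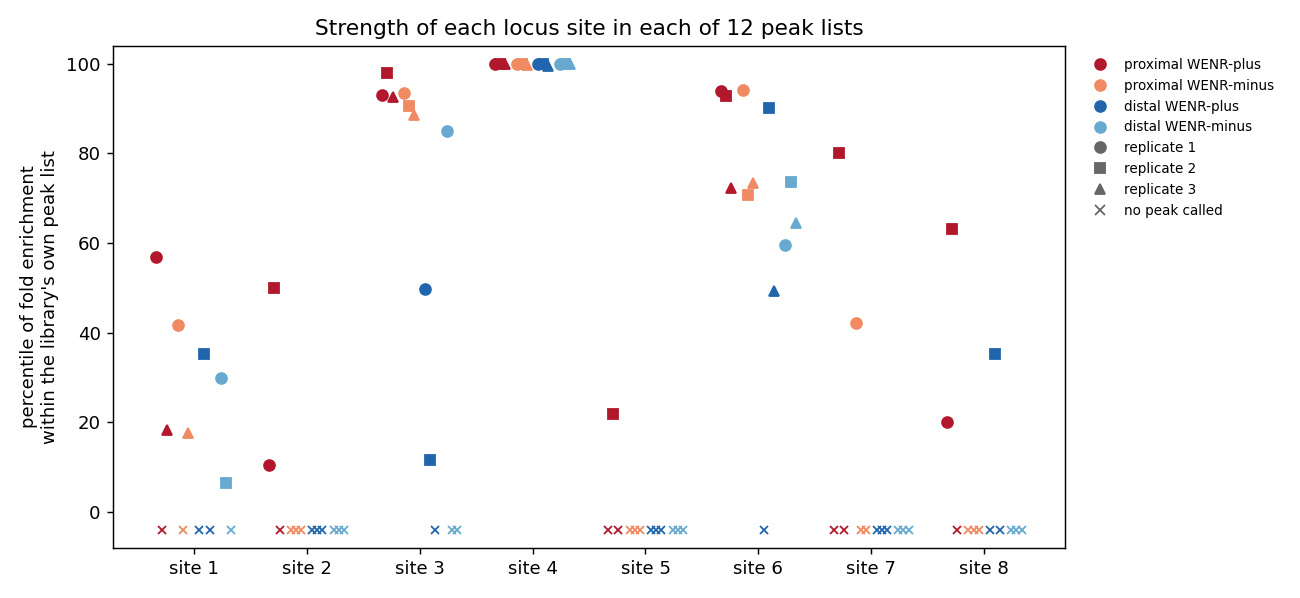
Percentile of the fold enrichment of each site within the peak list of each library; colours are groups, symbols are replicates and crosses are libraries with no peak. Site 4 lies above 99.5 in all 12 libraries, the 6 proximal libraries of site 3 lie between 88.5 and 97.9 with every distal library below them, and sites 1, 2, 5, 7 and 8 hold a peak in 7 libraries at most.

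No site of the locus was called in all 6 libraries of 1 colon site and in none of the other, beside 1.04% of all merged regions in the proximal and 0.0553% in the distal direction. Of the 7 sites called in at least 2 libraries, 6 were called in more proximal than distal libraries, and site 4 in 6 of each. Over all 35518 such regions the share with more proximal calls was 76.3%, so the count at the locus was near that of the genome. The mean percentile was lower in distal than in proximal libraries at all 8 sites and at 87.6% of all merged regions. Site 8 was 3.09 kb inside the right edge. The first region outside that edge, 11.0 kb beyond it (chr4:49567284-49567829), was called in 6 libraries with folds of 5.49 to 10.2. On the left, site 1 was 52.9 kb inside the edge, and the first region outside (chr4:49300483-49300779) lay 29.2 kb beyond it and was called in 2 libraries.

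No summit lay within 3 kb of the outer start site of a member in any library. The nearest were 3.88 kb from that of Acnat1, 25.4 kb from that of Acnat2 and 4.03 kb from that of Baat. Acnat2 and Acnat1 had peaks within 3 kb of an internal start in 7 and 9 libraries, at site 1 and at sites 2 and 3. The neighbours examined were Plppr1, a membrane protein gene that reaches into it from the left, Mrpl50, a gene for a mitochondrial ribosomal protein, and Zfp189, a zinc finger gene. None of the 3 had a peak within 3 kb of a start site in any library. The lists hold no expression values, so none of these positions was tied to the activity of a gene, and markers of the labelled tissue could not be checked.

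Several sites had a near-copy inside the locus that was not called. The 301 bp around the summit of site 3 aligned to a stretch of Acnat2 with 87.7% identity over 301 aligned positions. In the 101 bp printed above, site 3 had 2 adjacent motif matches and its copy had 1, with 8 mismatches and 6 gap positions. Site 3 was called in 9 libraries and its copy in none. For site 1 the copy in Acnat1 was 93.7% identical over 300 positions and was called in none, against 7 libraries for site 1. Neither copy of site 1 had a match in the printed 101 bp. Site 2 likewise had a copy in Acnat2, 93.4% identical, that was called in none, and both copies held 1 match. At sites 1 and 2 the calls differed between copies with the same number of motif matches in the 101 bp around the median summit. Site 1 held 2 matches outside those 101 bp, and the copies were not searched beyond them. Site 2 was called in only 2 libraries, at folds of 3.80 and 5.02.

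Site 6 and site 7 lie in the 2 copies of a duplicated stretch to either side of Baat. Around the summit of site 6 the copy was 91.4% identical over 233 positions. The motif match 25 bp to the left of the median summit had C24T and T26C in the copy, with positions counted from 1 at the left end of the printed site 6 sequence and the base of site 6 first, and the copy held 0 matches in that window. No peak overlapped those 100 bp of the copy. Site 7, 311 bp further on, matched the right part of site 6 with 96.7% identity over 302 positions, and the 101 bp around its summit were the same base for base. Site 6 was called in 11 libraries and site 7 in 2. Reads from such identical stretches can be placed in either copy, and their part in the calls at sites 6 and 7 was not tested.

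Copies elsewhere in the genome were counted with the same 301 bp, as alignments of at least 200 bp with at least 80% identity. Site 6 had 223, of which 25 were at least 90% identical, and 86.1% of the 101 bp around its summit was soft-masked as repeat. Site 4 had 34, at most 84.4% identical, and 33.7% of its 101 bp was soft-masked. Site 3 had only the copy in Acnat2, site 1 only that in Acnat1, and site 8 had none. None of the 8 sites had a copy with at least 99% identity over that length.

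The Cdx2 motif was present within 50 bp of the median summit at 6 of the 8 sites, all but sites 1 and 5. It was present near 58% of all peaks of the 12 lists and in 11.2% of windows placed 1000 bp away from them. Shares of peaks take each library's peak at its own summit, so a region called in several libraries counts more than once. Sites 3 and 4 had 2 matches each, as had 20.9% of all peaks (2 or more) and 35.1% of the peaks at or above percentile 99 of their list. Of the other motifs searched, the HNF1 motif GTTAAT was present at site 4 (8.73% of all peaks) and the TCF motif ATCAAAG at site 3 (2.71%). The HNF4 motif CAAAGTNCA (1.49%), the GATA motif AGATAA (10.3%) and the AP-1 motif TGANTCA (7.42%) had no match within 50 bp of the 8 median summits. The sites were not searched for them beyond that. These are matches of letters and were not tested as binding sites of those factors.

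Withdrawal of the niche factors left site 4 near the top of every list, and the values of the other sites overlapped between media or rested on few peaks. The calls of all 4 groups were in view when the locus was chosen, so the media are also compared as a description, with no p for a site. At site 4 the mean percentile was 99.9 ± 0.108 in WENR-minus and 99.9 ± 0.178 in WENR-plus organoids (SD, n = 6 each). At site 3 the proximal means were 90.9 ± 2.47 in WENR-minus and 94.5 ± 2.93 in WENR-plus organoids, and the distal means 28.3 ± 49.1 and 20.4 ± 26.0 (SD, n = 3 each, no peak counted as 0). The difference at site 3, WENR-minus minus WENR-plus, was thus −3.64 in proximal and 7.94 in distal organoids. At site 6 it was −6.89 in proximal and 19.4 in distal organoids, where 1 WENR-plus library without a peak counted as 0. Whether these differences between media differed between the colon sites was not tested. Site 8 was called in 3 WENR-plus libraries and in no WENR-minus library, a difference of −19.7 over both colon sites. Its folds were 4.12 to 5.64, and no call was left with lists of equal length. The share of all regions with such calls is not given here. Over all 35518 regions called in at least 2 libraries, a two-sided exact permutation test of medium within colon site gave an unadjusted p under 0.05 at 749 (2.11%), and Fisher's exact test of the calls at 67 (0.189%). After Benjamini-Hochberg adjustment 0 regions passed by either test. The smallest p possible was 0.005 for the permutation and 0.00216 for Fisher's exact test. Adjusted over 35518 regions, such a p passes only where many regions reach it. The 0 therefore does not show that medium had no effect.

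The 5 regions elsewhere in the genome whose 12 percentiles were most like those of site 3 were taken by the mean absolute difference over the 12 libraries. They were nearest to Epha3 (mean difference 4.54 percentile points), Ext1 (4.82), Tnfrsf11b (6.97), Rnf220 (7.1) and Tspan18 (7.71), at distances of 30.1 to 191 kb from the start sites of these genes. All 5 were called in 6 proximal libraries and in 1 to 3 distal ones. Exactly the same libraries as for site 3 were called at 71 other regions.

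A list of 39 genes of bile acid and acyl-CoA metabolism was counted for regions within 3 kb of a start site that were called in all 3 libraries of a group. In proximal organoids their number was 5 in WENR-plus (5.87% of 21911 protein-coding genes) and 2 in WENR-minus medium (3.85%). In distal organoids it was 0 in WENR-plus (1.98%) and 1 in WENR-minus medium (2.59%). In at least 1 group it was 5 of 39, or 12.8%, beside 6.71% of all protein-coding genes. With lists of equal length it was 1 of 39 (2.56%, beside 2.71%), and within 1 kb of a start site 3 of 39 (7.69%, beside 2.68%). With calls in at least 2 libraries of a group it was 6 of 39 (15.4%, beside 12.7%). Of the 24 genes of bile acid conjugation and peroxisomal acyl-CoA metabolism, 2 were counted. They were Slc27a2, which activates fatty and bile acids with CoA, and Abcd3, a peroxisomal membrane transporter. Of the 12 genes of bile acid transport and sensing, 3 were counted. They were Slc10a2, the apical uptake transporter of the ileum, Slc51b, a subunit of the basolateral exporter, and Abcc3, another basolateral exporter. None of the 3 genes of taurine and glycine supply was counted. The Slc10a2 region lay 33 bp from a start site and was called in 6 proximal and 4 distal libraries, with a median percentile of 69.5 over those 10. The Slc27a2 region, 695 bp from a start site, was called in 6 proximal and 2 distal libraries, with a median of 66.5. Both stood below site 4, which lay above percentile 99.5 in every library.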

How the data were processed

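Cdx2 was mapped by ChIPmentation (chromatin immunoprecipitation with transposase-inserted adapters). The study describes trimming (Trimmomatic), alignment to mm10 (Bowtie2), removal of duplicates (SAMtools) and a separate MACS2 peak call for every library (2.2.7.1 per the submitters' processing notes), with its own input as control and a q-value limit of 0.01. Whether reads that match 2 places entered the peak calls is not given in the sources used here. The deposited lists give, per peak, a score made from the q-value, the fold enrichment (a ratio of summit pileup to local background), and the −log10 p and −log10 q values made by the authors. The 12 input libraries were not analysed here except through these calls. The lists hold no read counts, so the authors' read-count comparison was not repeated and depth per site is unknown.

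Peaks of the autosomes, X and Y were joined where they shared 1 bp or more. Fold enrichment was turned into its percentile within a list (a library's strongest peak in a region, no peak as 0). GENCODE vM21 gave the genes, and GRCm38, the assembly of mm10, the RefSeq genome sequence. Medium was tested per region by an exact permutation within colon site (400 labelings) and by Fisher's exact test, both two-sided with Benjamini-Hochberg adjustment. Both tests were first run on simulated data with independent libraries and percentiles without zeros. The real lists hold many zeros and may share mice, so that run does not cover them. Copies were found with blastn 2.17.0, and tests used scipy 1.17.1. Alternatives were lists with a −log10 q of at least 5, lists of equal length, leaving out each replicate, other windows, merging by summits within 150 bp, percentiles of −log10 q and a replicate block. The named genes were the members, coding genes of the window (1 item is not reported here), the 5 regions most like the site called in all libraries of 1 colon site and fewest of the other, and listed pathway genes with a promoter region in all 3 libraries of a group. Members and gene lists were chosen with earlier results of these data known. The study describes cultures from 3 mice, and the labels do not say whether same-numbered libraries share a mouse. The p-values treat libraries as independent, which 12 libraries from 3 mice are not. Neither the p-values nor the SDs, whose n counts libraries, measure the spread between mice.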

Additional observations from a re-analysis of the deposited data

How the results depend on the processing

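The locus held 8 sites, 7 to 8 when a replicate was left out. It held 3 with lists of equal length (sites 3, 4 and 6), 7 with 10 kb to either side, 13 with 100 kb to either side and 10 when sites were formed from summits within 150 bp. No site was called in all 6 libraries of 1 colon site and none of the other, nor with a −log10 q of at least 5, lists of equal length, a replicate left out or summits within 150 bp (the wider and narrower windows were not checked for this). The mean percentile was lower in distal than in proximal libraries at 8 of 8 sites, beside 87.6% of all merged regions. This count was 2 of 3 with lists of equal length, 5 of the 5 sites called at both colon sites when libraries without a peak were left out, and 7 to 8 when a replicate was left out. The difference at site 4 was −0.0325, and 0.0267 with lists of equal length. At site 1 it was −10.4, with a range of −26.1 to 1.49 (without replicate 1) when a replicate was left out. The difference between media turned sign at site 3 without replicate 1 (−5.71) and at site 6 with a −log10 q of at least 5 (−0.442), lists of equal length (−3.82) and without replicate 1 (−5.57). It did so too at site 4 with lists of equal length (−0.0267) and without replicate 3 (−0.00801), and at site 1 without replicate 2 (3.53). Leaving out a replicate gave ranges of −7.35 to 3.53 at site 1, −5.71 to 7.91 at site 3, −0.00801 to 0.0417 at site 4 and −5.57 to 19 at site 6. The Cdx2 motif was present at 6 sites, at 4 within 25 bp (27.5% of all peaks) and at 7 within 100 bp (78% of all peaks). Pathway genes with a promoter region numbered 5, and 3 with start sites within 1 kb or 1 with lists of equal length. They numbered 6 with calls in at least 2 libraries of a group.

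No source ties a replicate number to a mouse, and the numbers were not taken to pair the libraries. Over the regions tested, deviations from the group means correlated from −0.068 to 0.412 (median 0.194) between same-numbered libraries of 1 colon site. Between differently numbered ones the median was −0.0846. Across colon sites the medians were 0.0849 for same-numbered and −0.0858 for differently numbered libraries. The deviations within each group sum to 0, so the same-numbered and differently numbered values are not independent of each other. Whether same-numbered libraries share a mouse was not tested. With a replicate block, 0 regions passed adjustment for medium by either test (366 at an unadjusted exact permutation p under 0.05 and 11 by the sign test). The smallest p possible was 0.0312 in both block tests. None could pass unless most regions reached it, so this 0 cannot speak to an effect of medium. The block leaves mean differences between colon sites as they are. Within pairs of the same number and medium the distal percentile was the lower one in 6 of 6 pairs at site 3, 5 of 6 at site 6, 4 of 6 at site 1, 3 of 6 at site 4, 2 of 6 at sites 2, 7 and 8 and 1 of 6 at site 5. Peak lists limit all of this: a site just under the threshold of the authors and an empty site both count as 0.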
